A study of Mus musculus with 9 samples.

Results

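The aminoacyl-tRNA synthetase genes are 35 of the 54325 gene symbols in the deposited table, chosen by name and not by any measured value, and they carry 283 of its 140658 transcripts. Of these genes, 20 encode cytoplasmic enzymes and 15, with names ending in 2, encode mitochondrial enzymes; Lars2 was left out, and the table's Mars is the gene also called Mars1. RNA was sequenced from Neuro-2A (N2A) cells, a mouse neuroblastoma line, that had all been treated for 2 h with okadaic acid, which inhibits protein phosphatases, at 200 nM. There were 3 libraries in each of 3 groups: input RNA prepared without an IP, RNA recovered with rabbit IgG (rIgG IP), and RNA recovered with an antibody to phosphorylated UPF1 (p-UPF1 IP). No library came from cells without okadaic acid. The study describes its western blots of the N2A-cell IPs as representing 3 independent experiments. No source used here says whether the replicate libraries were separate cultures, so that p-values measure the spread between these libraries, which may be technical.

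Each aminoacyl-tRNA synthetase joins an amino acid to its tRNA, and the charged tRNA then carries that amino acid to a translating ribosome. Cytosolic and mitochondrial translation use separate enzymes for most amino acids, while Gars and Kars serve both compartments from a single gene. Several cytoplasmic enzymes (Eprs, Iars, Lars, Mars, Qars, Rars, Kars and Dars) are held together in the multisynthetase complex by the scaffold proteins Aimp1, Aimp2 and Eef1e1. UPF1 is an RNA helicase that becomes phosphorylated on mRNAs undergoing nonsense-mediated mRNA decay (NMD), a pathway that removes mRNAs on which translation stops upstream of an exon junction or ahead of a long 3′ UTR, so that antibody to p-UPF1 is used to recover such RNAs. The comparisons asked which of these mRNAs were over- or under-represented with p-UPF1 relative to input and to rIgG, and whether the cytoplasmic and mitochondrial enzymes differed.

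The depth was 25184464 to 29857955 counts for an input library, 5312526 to 6246110 for a p-UPF1 IP library and 79010 to 474491 for an rIgG IP library. Levels are given in CPM, counts relative to the library's total after TMM scaling, which was done separately for each pair of groups. A count of 3 in a library corresponded, before scaling, to 0.1 to 0.119 CPM in the input, 0.48 to 0.565 CPM in the p-UPF1 IP and 6.32 to 38 CPM in the rIgG IP; these floors cover counting error only, since PCR copies are not independent molecules. The 35 genes together held 20052 to 22874 counts in an input library, 5203 to 6771 in a p-UPF1 IP library and 43 to 321 in an rIgG IP library. As a check of the cell type, the sympathetic neuroblast markers Dbh, Th and Chga had counts in every input library. The lists for astrocytes, oligodendrocytes, leukocytes, endothelium and fibroblasts each summed to at most 2.41 CPM in the input. The 3 oligodendrocyte markers summed to between 9.37 and 12.3 CPM in the p-UPF1 IP against 1.71 to 2.41 CPM in the input, and their part in the results below was not tested. Fewer cells of a type and less RNA per cell cannot be told apart in such bulk libraries.

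In the input, cytoplasmic enzymes were the more abundant class when levels were taken per length, as CPM per kilobase of the transcripts' mean length weighted by their input counts. Gars, the glycyl-tRNA synthetase of both compartments, had the highest level at 59.8 ± 2.11 CPM per kb (SD, n = 3). Eprs, a fusion of the glutamyl- and prolyl-tRNA synthetases, followed at 38.1 ± 0.739 and Nars, for asparagine, at 34.7 ± 1.25 CPM per kb. The lowest level was that of Pars2, the mitochondrial prolyl-tRNA synthetase, at 0.109 ± 0.0247 CPM per kb. The order of the means placed all 20 cytoplasmic genes above all 15 mitochondrial genes. At the border between the classes, however, Farsa (3.54 ± 0.077) and Yars2 (3.49 ± 0.414 CPM per kb) lay within their combined spread. The same was true of 19 of the 34 neighbouring pairs in this order. Among them was every pair from Dars (8.58 ± 0.263) down to Hars (5.25 ± 0.404 CPM per kb). The pairs from Aars2 (1.12 ± 0.151) down to Sars2 (0.7 ± 0.0423 CPM per kb) were also among them. Neighbours in these runs could therefore not be ranked against each other, while the ends of each run lay further apart than their combined spread.

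Relative to input, the p-UPF1 IP held both over- and under-represented members of this family. By edgeR's quasi-likelihood test on counts summed per gene, with Benjamini-Hochberg adjustment over all 16919 genes tested, 14 of the 35 genes were higher in the p-UPF1 IP and 17 were lower at an adjusted p under 0.05. Across all genes tested, 26.3% were higher and 35.7% were lower, so that most genes of any kind passed this test. The median log2 fold change was −0.26 over the 35 genes and −0.42 over all genes. With an additional threshold of an absolute log2 fold change above 1 (the study applied a log2 fold change above 1 to increases), 9 genes were higher (17.3% of all genes) and 8 were lower (26.5% of all genes), Pars2 among the latter by its fitted value.

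The difference between the cytoplasmic and mitochondrial classes was described and not tested. Of the 20 cytoplasmic genes, 7 were higher, 12 were lower and Eprs was not called, with a median log2 fold change of −0.57. Of the 15 mitochondrial genes, 7 were higher, 5 were lower and 3 were not called (Nars2, Wars2 and Yars2), with a median of 0.19, or 0.60 without Pars2, which had no count in the p-UPF1 IP. The mitochondrial genes that passed were also further from 0: all 11 with counts in both groups exceeded an absolute log2 fold change of 1, compared with 5 of the 19 cytoplasmic genes. Of all genes tested, 26.3% were higher and 17.3% were higher by more than 1. In the same way, 35.7% were lower and 26.5% were lower by more than 1. The SE was 0.11 to 0.31 for these mitochondrial genes and 0.06 to 0.17 for the cytoplasmic genes, so that the former mostly needed larger fold changes to pass. The class medians depend on the transcripts counted and on the scaling. With protein-coding transcripts alone, the mitochondrial genes divided into 5 higher and 6 lower, with a median log2 fold change of −0.41, close to the −0.52 of the cytoplasmic genes (all genes, −0.21). With library totals in place of TMM, the median of all genes moved from −0.42 to −0.01 and the share of all calls that were higher from 42.4% to 56.7%. The cytoplasmic genes then divided into 8 higher and 8 lower and the mitochondrial genes into 8 higher and 5 lower, with no change of direction among the called genes; Hars, Iars, Mars and Nars were then no longer called, and Eprs and Nars2 were called higher.

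A comparison that needs no scaling between libraries gave the same order. Mitochondrial enzymes made up 6.33%, 6.33% and 6.12% of the counts of the 35 genes in the input libraries, as against 9.34%, 9.61% and 9.85% in the p-UPF1 IP libraries. Every p-UPF1 IP library thus lay above every input library. A large part of the increase lay in Ears2. Without it, the shares were 5.76% to 6.03% in the input and 7.36% to 7.91% in the p-UPF1 IP. Without Ears2 and Vars2 they were 5.44% to 5.69% and 6.33% to 6.95%. The share also depends on the cytoplasmic counts, among which Gars fell. Gars held 3241, 3083 and 3674 of the 19220, 18783 and 21474 cytoplasmic counts in the input libraries. In the p-UPF1 IP libraries it held 218, 302 and 296 of 4717, 6079 and 6104. Whether the shares differ without Gars as well was not tested. In the rIgG IP the mitochondrial share was 4.65% to 6.54%, from only 2 to 21 mitochondrial counts in a library.

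**Figure D1:**
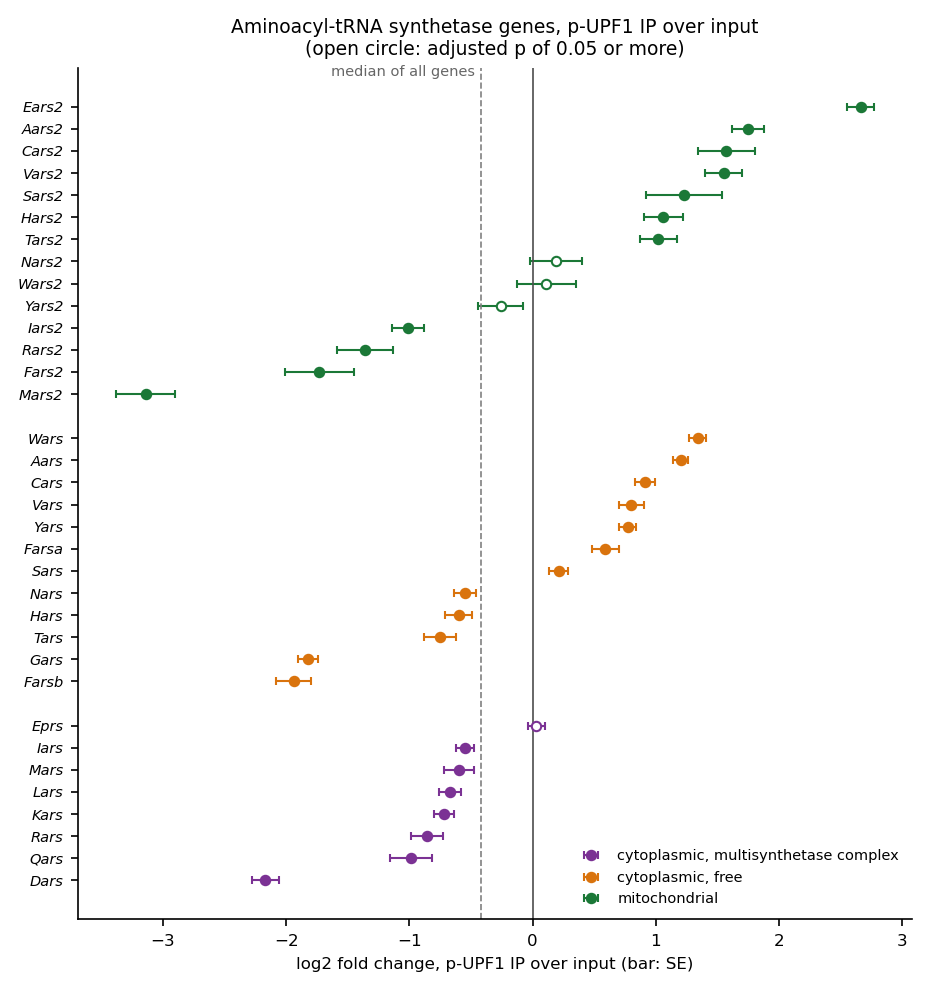
Log2 fold change of each gene in the p-UPF1 IP over input (x axis, 3 libraries against 3; bars, SE), by class; open circles did not pass an adjusted p of 0.05, the dashed line is the median of all genes (−0.42), and Pars2, at 0 in the p-UPF1 IP, is left out. The multisynthetase complex enzymes lie between −2.17 and 0.03, while free cytoplasmic enzymes span −1.94 to 1.34 and mitochondrial enzymes −3.14 to 2.66.

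Within the cytoplasmic class, most enzymes of the multisynthetase complex were under-represented relative to input. Of its 8 enzymes 7 were lower in the p-UPF1 IP, none was higher, and the median log2 fold change was −0.70 (all genes, −0.42). Of all genes tested, 26.3% were higher and 35.7% lower. Dars had a higher fold change than only 19% of all genes. The others called lower exceeded 37.3% (Qars) to 46.7% (Iars) of all genes, and so lay not far below the middle. The 12 cytoplasmic enzymes outside the complex divided into 7 higher and 5 lower, with a median of 0.40; the free enzymes Farsb and Gars lay below 7 of the 8 complex enzymes, and the difference between these groups was not tested. Complex enzymes held 43.9%, 43.9% and 43.2% of the cytoplasmic counts in the input libraries, as against 34.7%, 35.8% and 33.1% in the p-UPF1 IP libraries, again without any overlap; the rIgG IP libraries lay at 39% to 43.3%. With library totals in place of TMM, 5 of the 8 remained lower, Iars and Mars were no longer called and Eprs was higher by a log2 fold change of 0.44 (adjusted p = 0.000849).

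Dars (chr1:128363707-128417368, GRCm38), the aspartyl-tRNA synthetase, showed the largest difference in the complex. Its level was 18.6, 19.2 and 18.1 CPM in the input and 3.56, 3.98 and 4.79 CPM in the p-UPF1 IP. The groups were far apart, and the log2 fold change was −2.17 ± 0.11 (SE; adjusted p = 8.29e-08). Kars, for lysine, had 31.3, 32 and 33.1 CPM in the input and 18.1, 20.5 and 19.6 CPM in the p-UPF1 IP (log2 fold change −0.72 ± 0.08, adjusted p = 1.86e-05). Rars, for arginine, had 18, 16.8 and 17.5 CPM in the input and 7.97, 12.1 and 8.46 CPM in the p-UPF1 IP (−0.86 ± 0.13, adjusted p = 0.000242). For Kars and Rars, too, every p-UPF1 IP library was below every input library. Iars, for isoleucine, had 46.4, 45.2 and 45.3 CPM in the input and 29.8, 33.4 and 30.3 CPM in the p-UPF1 IP (−0.55 ± 0.07, adjusted p = 8.61e-05). Lars, for leucine, had 44, 46.8 and 47.9 CPM in the input and 25.1, 29.5 and 32 CPM in the p-UPF1 IP (−0.67 ± 0.09, adjusted p = 0.000107). Neither call held throughout: Iars was not called with library totals (−0.14, adjusted p = 0.214), and Lars reversed with protein-coding transcripts alone (log2 fold change 1.69, adjusted p = 2.66e-06).

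The other complex enzymes were Qars, for glutamine (log2 fold change −0.99), Mars, for methionine (−0.60), and Eprs. Eprs was the exception: at 159, 159 and 165 CPM in the input and 170, 170 and 154 CPM in the p-UPF1 IP, its groups overlapped (log2 fold change 0.03 ± 0.07, adjusted p = 0.709). The complex was also the source of 1 of the 8 members called higher against rIgG, again Eprs, described with that comparison below.

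Among the free cytoplasmic enzymes, the tryptophan, alanine, cysteine, valine and tyrosine enzymes were over-represented with p-UPF1. Wars (chr12:108860030-108894174), the tryptophanyl-tRNA synthetase, had 23.6, 24.6 and 24.7 CPM in the input and 58.7, 63.4 and 62.3 CPM in the p-UPF1 IP (log2 fold change 1.34 ± 0.07, adjusted p = 7.54e-08). Aars (chr8:111033144-111057664), the alanyl-tRNA synthetase, had 76.1, 78.2 and 76.4 CPM in the input and 171, 174 and 186 CPM in the p-UPF1 IP (1.20 ± 0.06, adjusted p = 1.03e-07). These were the 2 cytoplasmic genes that were higher by a log2 fold change above 1, and in each the replicates of a group lay close together. Cars, for cysteine, had 17.3, 15.4 and 17.5 CPM in the input and 31, 31.4 and 32 CPM in the p-UPF1 IP (0.91 ± 0.08). Vars, for valine, had 31.5, 34.6 and 29.2 CPM in the input and 50.9, 53.1 and 62 CPM in the p-UPF1 IP (0.80 ± 0.10). Yars, for tyrosine, had 35, 37 and 36.7 CPM in the input and 62.4, 60.8 and 62.6 CPM in the p-UPF1 IP (0.77 ± 0.07). None of these groups overlapped, and the adjusted p-values were 3.9e-06, 3.85e-05 and 2.85e-06 for Cars, Vars and Yars.

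Farsa and Farsb, which encode the α and β subunits of the same cytoplasmic phenylalanyl-tRNA synthetase, went in opposite directions on counts summed per gene. Farsa had 7.22, 6.92 and 7.15 CPM in the input and 10.3, 9.61 and 12.1 CPM in the p-UPF1 IP (log2 fold change 0.59 ± 0.11, adjusted p = 0.00105). Farsb had 16.3, 16.4 and 19.6 CPM in the input and 3.56, 4.81 and 5.08 CPM in the p-UPF1 IP (−1.94 ± 0.14, adjusted p = 9.45e-07). Neither direction was seen with protein-coding transcripts alone, however. Those of Farsa had no count in any library, so that Farsa was not tested. Most Farsa counts were assigned to ENSMUST00000129595.7, annotated as retaining an intron, which was not called (edgeR, log2 fold change 0.17 ± 0.15, adjusted p = 0.418). With counts of protein-coding transcripts alone, Farsb had a log2 fold change of −1.14 and was not called (adjusted p = 0.165). Gars (chr6:55038007-55079500) was the other strongly under-represented free enzyme, at 141, 138 and 148 CPM in the input and 37, 41.5 and 41.7 CPM in the p-UPF1 IP (−1.82 ± 0.08, adjusted p = 1.52e-08). It was the most abundant member in the input per length, and no other free enzyme but Farsb was as far below its input level. Tars (−0.75), Hars (−0.60) and Nars (−0.55), for threonine, histidine and asparagine, were also lower. Sars, for serine, was higher by only 0.21 ± 0.08 (adjusted p = 0.0333), a call that was lost without input replicate 1 (adjusted p = 0.0599), input replicate 2 (0.0686) or p-UPF1 IP replicate 3 (0.0727), and with all 9 libraries in the fit (0.0585) or no filter on low counts (0.298).

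By the structural classes of the catalytic site, 4 class I enzymes were higher and 5 lower (median log2 fold change −0.55, 9 genes), and 3 class II enzymes were higher and 7 lower (median −0.66, 10 genes), where 26.3% of all genes were higher and 35.7% lower with a median of −0.42; Eprs, with a site of each class, was not counted.

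Among the mitochondrial enzymes, Ears2 (chr7:122037213-122067263), the mitochondrial glutamyl-tRNA synthetase, had the highest fold change of all 35 genes. Its level was 3.3, 2.86 and 3.49 CPM in the input and 18.8, 22.2 and 20.2 CPM in the p-UPF1 IP. That is a 6.33-fold difference (log2 fold change 2.66 ± 0.11, adjusted p = 1.94e-08), above that of 96.5% of all genes tested. Aars2, for alanine, had 3.61, 4.06 and 3.09 CPM in the input and 11.5, 12.2 and 12.4 CPM in the p-UPF1 IP (1.75 ± 0.13, adjusted p = 1.11e-06). Vars2, for valine, had 2.74, 3.84 and 3.13 CPM in the input and 9.5, 9.34 and 9.59 CPM in the p-UPF1 IP (1.55 ± 0.15, adjusted p = 8.16e-06). In all 3 genes the lowest p-UPF1 IP library was above the highest input library. With protein-coding transcripts alone, Ears2 reversed, since it then had no count in the p-UPF1 IP (adjusted p = 0.0013), and Vars2 was no longer called (log2 fold change 0.27, adjusted p = 0.905).

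The remaining over-represented mitochondrial enzymes were those for cysteine, serine, histidine and threonine. Cars2 had 1.74, 1.34 and 1.93 CPM in the input and 3.73, 5.49 and 5.64 CPM in the p-UPF1 IP (log2 fold change 1.57 ± 0.23, adjusted p = 0.000154). Hars2 had 4.44, 5.14 and 4.58 CPM in the input and 9.66, 7.96 and 12 CPM in the p-UPF1 IP (1.06 ± 0.16, adjusted p = 0.00017). Tars2 had 5, 4.51 and 4.38 CPM in the input and 9.16, 7.83 and 11.1 CPM in the p-UPF1 IP (1.02 ± 0.15, adjusted p = 0.000157). In these 3 genes the p-UPF1 IP replicates were more spread than the input replicates but stayed above them. Sars2 had 1.22, 1.34 and 1.37 CPM in the input and 2.03, 4.53 and 2.54 CPM in the p-UPF1 IP, from 12, 33 and 18 counts (1.23 ± 0.31, adjusted p = 0.00556). Of the 35 genes, 14 have an exon overlapped by another annotated gene, on the opposite strand except for Aars, whose end overlaps Exosc6 on the same strand. Measured over whole gene spans, introns included, Hars and Hars2 overlap head to head by 198 bases and Cars2 overlaps Naxd by 984 bases. By the same measure, Vars2 overlaps an annotated antisense gene by 4734 bases. The sources used here do not state whether the counting used strand, so that reads in overlapped exon bases cannot be assigned to a gene with certainty.

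Mars2 (chr1:55237177-55248470), the mitochondrial methionyl-tRNA synthetase, was the most under-represented member with counts in each library. It had 5.04, 4.51 and 5.02 CPM in the input and 0.678, 0.412 and 0.564 CPM, from 4, 3 and 4 counts, in the p-UPF1 IP. The difference was 8.83-fold (log2 fold change −3.14 ± 0.24, adjusted p = 1.39e-06), with all p-UPF1 IP libraries near the floor of 3 counts. Fars2, for phenylalanine, had 2.91, 2.55 and 2.97 CPM in the input and 1.02, 0.549 and 0.987 CPM in the p-UPF1 IP (−1.73 ± 0.28, adjusted p = 0.000343). Rars2, for arginine, had 2.91, 3.35 and 2.89 CPM in the input and 1.36, 1.1 and 1.13 CPM in the p-UPF1 IP (−1.36 ± 0.23, adjusted p = 0.000454). Both genes were below their input level in each p-UPF1 IP library. Iars2, for isoleucine, had 12.4, 12.7 and 11.2 CPM in the input and 4.75, 7 and 6.06 CPM in the p-UPF1 IP (−1.01 ± 0.13, adjusted p = 8.34e-05). Pars2 had 6, 4 and 7 counts in the input but none in the p-UPF1 IP; it passed the test (adjusted p = 0.0253), but its input level of 0.179 to 0.281 CPM was under the p-UPF1 IP floor, so that no fold change is given. The call was lost with DESeq2 (adjusted p = 0.104) and without input replicate 1 (0.0515), input replicate 3 (0.0545), p-UPF1 IP replicate 2 (0.053) or p-UPF1 IP replicate 3 (0.0515). The groups of the remaining 3 genes overlapped: the log2 fold change was 0.19 ± 0.21 for Nars2 (asparagine; adjusted p = 0.451), 0.11 ± 0.24 for Wars2 (tryptophan; adjusted p = 0.734) and −0.26 ± 0.18 for Yars2 (tyrosine; adjusted p = 0.223). Over its whole gene span, introns included, Fars2 overlaps several genes on the opposite strand, among them an annotated antisense gene over 72312 bases.

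**Figure D2:**
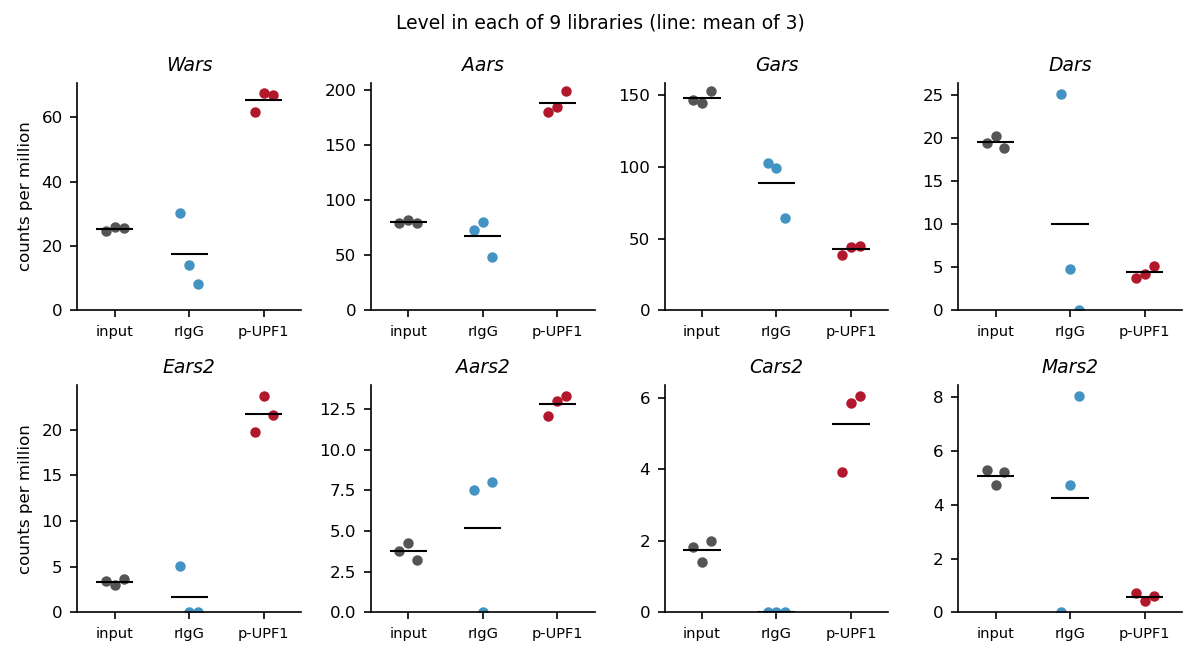
Level in CPM (y axes from 0, scaled together over all 9 libraries) of 4 cytoplasmic genes (top) and 4 mitochondrial genes (bottom) in the input, the rIgG IP and the p-UPF1 IP; points are libraries and lines are means of 3. The p-UPF1 IP points lie above all input points for Wars, Aars, Ears2, Aars2 and Cars2 and below them for Gars, Dars and Mars2, while rIgG IP points are widely spread (0 to 25.1 CPM for Dars).

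For 12 amino acids a cytoplasmic and a mitochondrial enzyme could be set side by side. The mitochondrial gene had the higher log2 fold change in 7 pairs and the cytoplasmic gene in 5, with a median difference of 0.61. In 7 pairs both genes were called in the same direction, and in 2 pairs, Hars with Hars2 and Tars with Tars2, both were called in opposite directions. Per 100 counts of Tars there were 28.7, 27.5 and 21.3 counts of Tars2 in the input, as against 102, 69.5 and 94 in the p-UPF1 IP. Per 100 counts of Hars there were 46.2, 49.8 and 40.9 counts of Hars2 in the input, as against 139, 123 and 167 in the p-UPF1 IP. Neither ratio overlapped between the groups. The opposite shift was seen for methionine, with 14.7, 12.8 and 15.1 counts of Mars2 per 100 of Mars in the input, as against 3.67, 1.9 and 2.07 in the p-UPF1 IP, and for tryptophan, with 6.83, 7.45 and 8.29 counts of Wars2 per 100 of Wars in the input, as against 3.76, 2.81 and 3.17 in the p-UPF1 IP. For arginine the ratios overlapped (16.2, 19.9 and 16.5 counts of Rars2 per 100 of Rars in the input, as against 17, 9.09 and 13.3 in the p-UPF1 IP). These ratios are not adjusted for length and are read only between groups; with 3 libraries against 3, a two-sided exact permutation test of such a ratio cannot give a p below 0.1, so none was run.

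**Figure D3:**
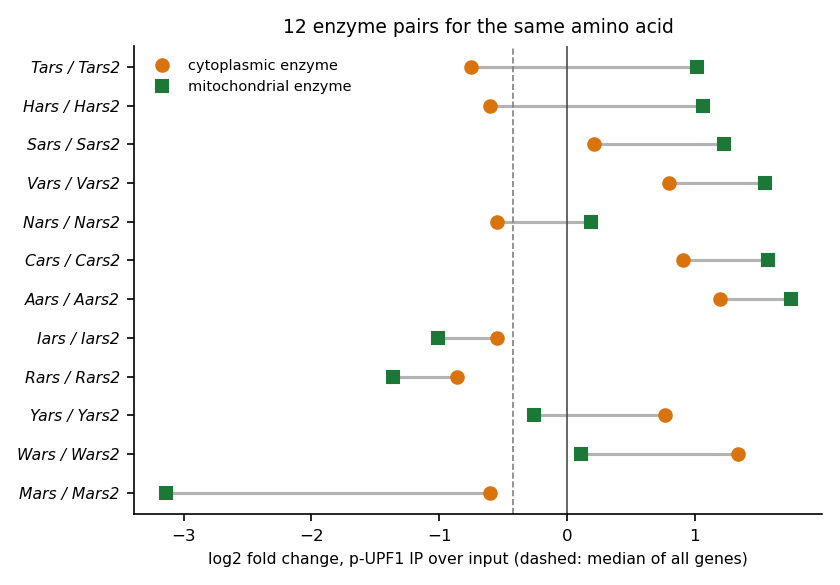
Log2 fold change in the p-UPF1 IP over input (x axis) of the cytoplasmic (circle) and mitochondrial (square) enzyme for each of 12 amino acids; the dashed line is the median of all genes (−0.42). The mitochondrial enzyme lies to the right in 7 pairs, by up to 1.77 for Tars2, and to the left in 5, by up to 2.54 for Mars2.

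Against the rIgG IP, fewer members passed, at the lower depth of that group. Of 34 genes tested (Pars2 had no count in either group), 8 were higher in the p-UPF1 IP and 2 were lower, by the same edgeR test, while 17.9% of all 12033 genes tested were higher and 5.59% were lower. The median log2 fold change was 0.47 for cytoplasmic genes and 1.46 for mitochondrial genes, or 1.15 without those at 0 in every rIgG IP library, against 0.89 for all genes. This comparison used the same p-UPF1 IP libraries as the comparison with input. With RLE size factors, 64.1% of all calls were higher, rather than 76.2%, and 6 members were higher and 3 lower.

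The members higher against rIgG were mostly free cytoplasmic enzymes. Aars had 29, 17 and 6 counts in the rIgG IP, as against 1010, 1265 and 1317 in the p-UPF1 IP, which corresponds to a log2 fold change of 1.64 ± 0.23 (adjusted p = 6.09e-06). Wars had 12, 3 and 1 counts in the rIgG IP, as against 346, 462 and 442 in the p-UPF1 IP (1.82 ± 0.33, adjusted p = 0.000181). Yars had 6, 8 and 2 counts in the rIgG IP, as against 368, 443 and 444 in the p-UPF1 IP (1.82 ± 0.32, adjusted p = 0.000172). After scaling, all p-UPF1 IP libraries were above all rIgG IP libraries for these 3 genes, which were also higher than in the input. Vars had 17, 3 and 0 counts in the rIgG IP (log2 fold change 1.36 ± 0.36, adjusted p = 0.00786), a call lost without rIgG IP replicate 2 (adjusted p = 0.0919) or 3 (0.0535). Cars had 7, 2 and 2 counts (1.39 ± 0.37, adjusted p = 0.00818), a call lost without rIgG IP replicate 2 (adjusted p = 0.0764) and with DESeq2 (0.0569). Eprs had 54, 27 and 7 counts in the rIgG IP, as against 1000, 1237 and 1092 in the p-UPF1 IP (0.80 ± 0.22, adjusted p = 0.0084), close to the median of all genes in this comparison, and was not called with RLE size factors (adjusted p = 0.0895).

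Of the mitochondrial enzymes, Ears2 and Cars2 passed against rIgG. Ears2 had 2, 0 and 0 counts in the rIgG IP, as against 111, 162 and 143 in the p-UPF1 IP (adjusted p = 0.00108); from these counts the scaled ratio was 9.4, with a 95% exact interval of 2.58 to 77.8 for counting error only. Cars2 had no count in the rIgG IP (adjusted p = 0.0343), and its 22, 40 and 40 counts in the p-UPF1 IP, or 4.73 to 7.07 CPM, lay near the lowest floor of the rIgG IP, so that no fold change is given. Its call was lost with DESeq2 (adjusted p = 0.113), with RLE size factors (0.0596), with filterByExpr (0.0546) and without rIgG IP replicate 1 (0.184), 2 (0.0946) or 3 (0.0736), while Ears2 was called under each of these settings. With protein-coding transcripts alone, Cars2 was not called (adjusted p = 0.132) and Ears2 had too few counts to be tested. The members lower than in the rIgG IP were Gars and Farsb. Gars had 41, 21 and 8 counts in the rIgG IP, or 104, 97.8 and 67.8 CPM, against 46.9, 52.1 and 52.3 CPM in the p-UPF1 IP (log2 fold change −0.92 ± 0.22, adjusted p = 0.00282). Without rIgG IP replicate 1, Gars was not called (−0.79, adjusted p = 0.08). Farsb had 9, 3 and 0 counts in the rIgG IP, and its groups overlapped (−1.51 ± 0.54, adjusted p = 0.0445); it was not called without rIgG IP replicate 1 (adjusted p = 0.639), rIgG IP replicate 2 (0.0737) or p-UPF1 IP replicate 1 (0.0578).

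Between the rIgG IP and input, edgeR's test called 0 of the 35 genes, of which 7 had an unadjusted p under 0.05, and DESeq2 also called 0. Of all genes tested, 0.584% were higher and 0.313% were lower. The smallest of these p-values among members was that of Gars (log2 fold change −0.65 ± 0.20, adjusted p = 0.215). At 2 to 21 counts in a library for the mitochondrial enzymes together, differences of the size seen with p-UPF1 were not detectable for most of them.

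Other genes of tRNA charging, 14 in all and listed by function, were mostly under-represented in the p-UPF1 IP. Against input, 2 were higher, 9 were lower and 3 were not called, while 26.3% of all genes were higher and 35.7% lower, and the median log2 fold change was −0.97 (all genes, −0.42). All 3 scaffolds of the multisynthetase complex were lower, as were 7 of its 8 enzymes. Aimp1 had 18.5, 17.7 and 18.9 CPM in the input and 12.7, 13 and 9.59 CPM in the p-UPF1 IP (−0.64 ± 0.11, adjusted p = 0.000575). Aimp2 had a log2 fold change of −1.14 ± 0.15 (adjusted p = 8.17e-05), and Eef1e1, with 3, 7 and 6 counts in the p-UPF1 IP, one of −2.40 ± 0.24 (adjusted p = 1.16e-05). Both genes stayed below every input library. Of the mitochondrial amidotransferase that completes glutaminyl-tRNA, Gatc was lower (log2 fold change −1.20) and Qrsl1 and Gatb were not called. Of the enzymes that make selenocysteyl-tRNA, Sepsecs was higher (0.97 ± 0.10) and Pstk was lower (−3.56). The proofreading factor Aarsd1 was the second higher gene (1.15 ± 0.40, adjusted p = 0.0282), while the proofreading factors Prorsd1 and Dtd1, the formyltransferase Mtfmt, which modifies the mitochondrial initiator tRNA, and Trnt1, which adds the CCA end to tRNAs, were lower. Against rIgG, 11 of the 14 could be tested, and 1 was higher (Sepsecs, adjusted p = 0.0492).

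The members' log2 fold changes followed the G+C content of their transcripts. Across the 34 genes other than Pars2, Spearman's rho between the G+C content of the most-counted transcript and the log2 fold change over input was 0.702 (Pearson's r = 0.719); it was 0.744 across the 20 cytoplasmic and 0.670 across the 14 mitochondrial genes. Across all 16897 genes with a value, rho was 0.364. These are correlations across genes, which share the same 6 libraries and are not independent replicates. Members called higher had a median G+C content of 55.4% and those called lower 47.7%, and for all genes the same medians were 53.3% and 46.6%. At the ends of the range, Mars2 (38.8%) and Dars (41.2%) were among the lowest fold changes, and Vars (60.9%), Sars2 (60.1%) and Aars2 (60%) were all higher in the p-UPF1 IP. For transcript length, rho was 0.098 across members (0.337 for cytoplasmic and 0.048 for mitochondrial genes), and for 3′ UTR length it was 0.198 (0.321 and −0.095).

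When each gene was set against genes of like G+C content (within 2.5 percentage points), some differences shrank and others did not. The cytoplasmic median was −0.16 relative to the median of all genes and −0.03 relative to genes of like G+C content, and the mitochondrial median, without Pars2, was 1.02 and 0.67. For the free cytoplasmic enzymes it was 0.82 and 0.09. The median of the complex enzymes was −0.28 and −0.32, with 1 of 8 above its background (Eprs). Ears2 stood 2.7 above and Hars2 1.62 above the median of genes of like composition, on the log2 scale, and Wars 1.28 above. Fars2 stood at −1.82, Mars2 at −1.72 and Gars at −1.55. Lars (−0.01), Iars (−0.03), Tars (−0.04) and Vars (0.04), by contrast, were at the level of genes of their composition. The part of G+C content in the results was not tested further.

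**Figure D4:**
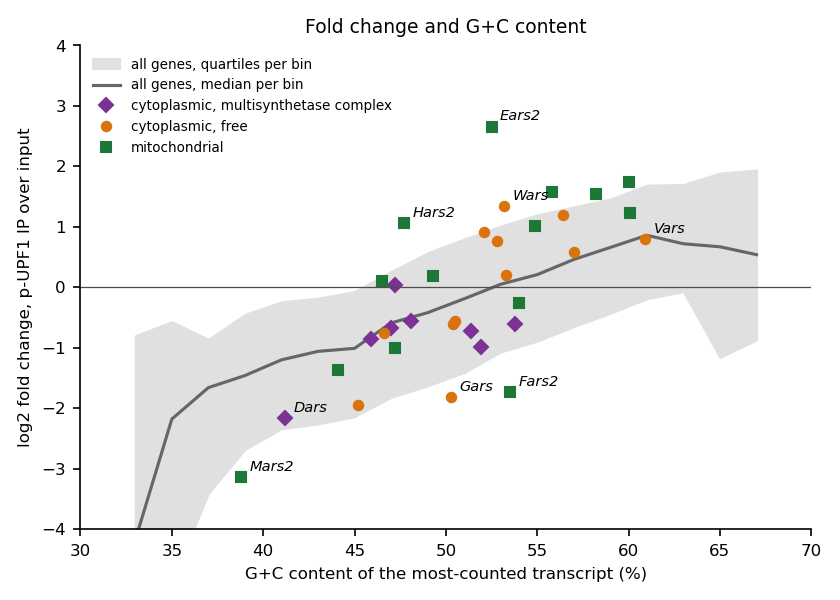
Log2 fold change in the p-UPF1 IP over input (y axis) against the G+C content of each gene's most-counted transcript (x axis, %) for 34 members; the grey line and band are the median and quartiles of all genes in bins of 2 percentage points, and some of the band lies below the axis range. Members follow the rise of the grey line, with Ears2, Hars2 and Wars among those above the band and Fars2, Gars and Mars2 below it.

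Single transcripts of these genes were then compared, because NMD acts on transcripts and not on genes. Of the 283 transcripts, 154 could be tested, and 17 from 12 genes were higher and 14 from 11 genes were lower in the p-UPF1 IP than in the input (edgeR, adjusted p under 0.05 and an absolute log2 fold change above 1). Across all 42616 transcripts tested, 8.55% were higher and 16.2% were lower. Ears2, Gars, Iars, Lars, Vars and Wars had transcripts in both lists. Fragments of 25 to 50 nt can match several transcripts of a gene, and the division of counts among them is then Salmon's estimate. Of the 31 transcripts called, 5 contained no 35-nt stretch that is absent from the gene's other transcripts.

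By annotated type, the makeup of the mitochondrial counts shifted towards retained introns. Transcripts annotated as retaining an intron held 10.4%, 15.9% and 8.93% of the mitochondrial counts in the input, as against 36.8%, 43.5% and 37.6% in the p-UPF1 IP, or 11.7% ± 3.68 and 39.3% ± 3.64 (SD, n = 3). For the cytoplasmic enzymes the shares were 9.46% ± 1.95 and 9.07% ± 0.631. The share of the class as a whole thus rose only for the mitochondrial enzymes, though the difference between the classes was not tested. Single cytoplasmic transcripts of this type were also called. Of 42 tested, 5 were higher and 2 lower, as against 2 and 0 of 15 mitochondrial ones (all transcripts, 8.55% higher and 16.2% lower). The mitochondrial rise came largely from Ears2, without which the shares were 10% ± 3.39 and 21.1% ± 3.26, and from Yars2. Such transcripts were assigned 0%, 42% and 0% of the Yars2 counts in the input, as against 87.5%, 77.8% and 100% in the p-UPF1 IP. These Yars2 counts were all of ENSMUST00000161191.7, which was not called (edgeR, log2 fold change 2.32 ± 1.89, adjusted p = 0.372). It has no 35-nt stretch of its own, so that its share rests on Salmon's division of counts. Transcripts annotated as NMD substrates held 10.9% ± 3.1 of the mitochondrial counts in the input and 8.25% ± 0.264 in the p-UPF1 IP, and 9.41% ± 0.886 and 7.07% ± 0.877 of the cytoplasmic counts. They were thus not a larger share of the members' counts with p-UPF1, but Lars weighs on the cytoplasmic share. Its ENSMUST00000235432.1 had 299, 310 and 348 counts in the input, as against 0, 0 and 2 in the p-UPF1 IP. Its ENSMUST00000237587.1 had 366, 320 and 349, as against none. Only 8.3% and 1.8% of their 35-nt stretches occur in them alone. The shares without Lars were not computed.

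**Figure D5:**
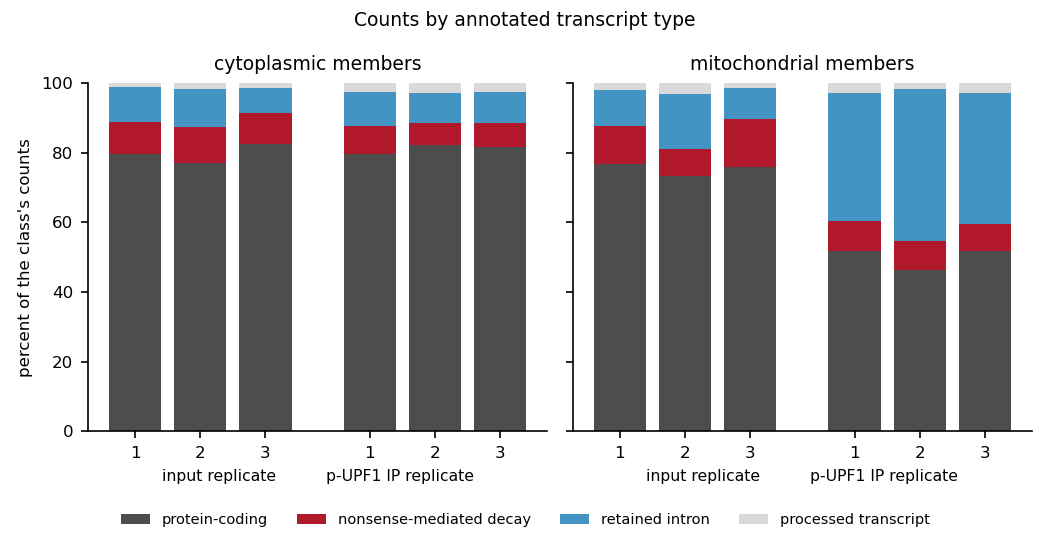
Share of each class's counts (y axis, %) by annotated transcript type in the 3 input and 3 p-UPF1 IP libraries, for cytoplasmic (left) and mitochondrial (right) members. The retained-intron share of the mitochondrial members lies between 8.93% and 15.9% in the input and between 36.8% and 43.5% in the p-UPF1 IP, while that of the cytoplasmic members lies between 7.27% and 11% in all 6 libraries.

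The sequences below show where the transcripts behind the largest shifts differ from the gene's main mRNA. They are from the GENCODE M21 transcripts (GRCm38) and are written 5′ to 3′. The first pair spans a boundary between exon and retained intron, with the bases that are intron in the main protein-coding transcript in capitals.
Ears2, chr7:122048087-122048116, minus strand: gctcggggtttgcagGTACATATGCAGCAG
Gars, chr6:55050305-55050334, plus strand: CTCTCTCCCTCACAGgtgtcagtggattgt

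The Ears2 boundary belongs to ENSMUST00000147397.1, in which the intron of 1369 bases at chr7:122046733-122048101 is kept. This transcript had no count in the input but 110, 144 and 133 with p-UPF1, at least 121-fold higher when the input is set at 3 counts in a library (adjusted p = 0.000402). The protein-coding Ears2 transcript ENSMUST00000033159.3 went the other way, with 53, 28 and 56 counts in the input but none in the p-UPF1 IP, at least 5.33-fold lower (adjusted p = 0.0117). The over-representation of Ears2 was thus assigned wholly to retained-intron transcripts, which held 100% of its counts in each p-UPF1 IP library and 30.3%, 56.2% and 35.6% in the input. Every 35-nt stretch of ENSMUST00000147397.1 also occurs in another Ears2 transcript, so that its own share rests on the estimated division of counts; the other retained-intron transcript of the gene, ENSMUST00000151530.7, had 23, 36 and 31 counts in the input as against 1, 18 and 10 in the p-UPF1 IP.

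The Gars boundary belongs to ENSMUST00000203334.1, which begins with 225 bases of intron (chr6:55050095-55050319). It had 6, 5 and 11 counts in the input, as against 44, 48 and 61 in the p-UPF1 IP (log2 fold change 4.27 ± 0.37, adjusted p = 0.00112). The main protein-coding Gars transcript, ENSMUST00000003572.9, had 3232, 3075 and 3660 counts in the input, as against 174, 254 and 235 in the p-UPF1 IP (−2.42 ± 0.09, adjusted p = 0.000119). The under-representation of Gars was thus that of its main mRNA, while a minor transcript of the same gene was over-represented; 28.4% of the 35-nt stretches of the minor transcript occur in it alone.

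For Wars the shift was between transcripts that share their last exons and differ at the 5′ end, whose first 30 bases are given in capitals since they are absent from the other transcript of the pair.
ENSMUST00000161410.7, chr12:108893169-108893198, minus strand: AGCTGTCCAGCTTGAGCACCCTTGGACTAC
ENSMUST00000109848.9, chr12:108894145-108894174, minus strand: GAGACCGGAAGTTATTCCAGCCGGCTGGTG

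The first had 521, 488 and 555 counts in the input, as against 0, 0 and 1 in the p-UPF1 IP, a scaled ratio of 0.0018 (95% exact interval 4.55e-05 to 0.01; adjusted p = 0.000695). The second had 0, 2 and 7 counts in the input, as against 345, 457 and 439 in the p-UPF1 IP (ratio 388, interval 204 to 850; adjusted p = 0.00195). Nearly all Wars counts were therefore assigned to one 5′ end in the input and to the other in the p-UPF1 IP. They differ only upstream of the shared sequence, by 38 and 105 bases, so that this assignment rests on few fragments. A similar exchange was seen for Iars, where ENSMUST00000047363.13 had 1068, 1012 and 1124 counts in the input, as against 18, 0 and 0 in the p-UPF1 IP, while ENSMUST00000164260.7 had none in the input but 140, 118 and 121 in the p-UPF1 IP (at least 120-fold higher, adjusted p = 0.000897). Neither Iars transcript has a 35-nt stretch of its own.

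Other transcripts with small p-values were the main mRNAs of Dars and Mars2 and transcripts of Lars and Vars. ENSMUST00000027602.14 of Dars had 425, 428 and 448 counts in the input, as against 19, 27 and 33 in the p-UPF1 IP (log2 fold change −2.56 ± 0.17, adjusted p = 0.000534). ENSMUST00000061334.9 of Mars2, an mRNA of 1 exon with 11294 bases, had 116, 101 and 125 counts in the input, as against 4, 3 and 4 in the p-UPF1 IP (−3.43 ± 0.31, adjusted p = 0.00123). In both genes the under-representation per gene was that of the main mRNA. For Lars, the main protein-coding transcript ENSMUST00000097590.4 was higher, with 192, 195 and 213 counts in the input, as against 143, 202 and 194 in the p-UPF1 IP (1.33 ± 0.11, adjusted p = 0.000896). ENSMUST00000237587.1 of Lars, annotated as an NMD substrate, had 366, 320 and 349 counts in the input but none in the p-UPF1 IP (at least 40.6-fold lower, adjusted p = 0.000585). With protein-coding transcripts alone, Mars was at a log2 fold change of 0.22 (adjusted p = 0.695). For Vars, ENSMUST00000174260.7 had 2, 2 and 1 counts in the input, as against 26, 26 and 25 in the p-UPF1 IP (5.29 ± 0.49, adjusted p = 0.00128). The main Vars mRNA ENSMUST00000087315.13 was lower, with 654, 729 and 712 counts as against 10, 55 and 36 (−2.93 ± 0.52, adjusted p = 0.0116). The protein-coding ENSMUST00000173584.7 was higher, with 45, 12 and 0 counts as against 205, 263 and 311 (5.21 ± 1.32, adjusted p = 0.0368). Only 1.56% and 0.473% of the 35-nt stretches of these 2 occur in them alone.

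Of the 27 tested transcripts of members that are annotated as NMD substrates, 2 were higher in the p-UPF1 IP and 3 were lower, where 8.55% of all transcripts were higher and 16.2% lower. Those higher were from Cars and Iars, and both end translation upstream of the last exon junction. Their stop codons, in capitals, and that of the Yars transcript of this type are shown with the bases around them; the first pair spans an exon junction.
Cars, chr7:143562961-143562970 joined to chr7:143559692-143559708, minus strand: gaccatgaaggcTGAagaagagaagag
Iars, chr13:49708479-49708479 joined to chr13:49709579-49709604, plus strand: gcatcgaccaccTGAccatcccatccc
Yars, chr4:129200791-129200817, plus strand: gggctgaggttgTGAagcaggtggaac

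In the Cars transcript, ENSMUST00000208575.1, the stop codon lies 139 nt upstream of the last exon junction. It had no count in the input but 20, 27 and 24 with p-UPF1 (at least 22.1-fold higher, adjusted p = 0.00345). In the Iars transcript, ENSMUST00000171510.1, the stop codon lies 181 nt upstream, and the counts were 0, 0 and 1 in the input, as against 17, 14 and 8 in the p-UPF1 IP (ratio 110, 95% exact interval 18.6 to 4443; adjusted p = 0.0146). Each has 32 stretches of 35 nt that occur in no other transcript of its gene, and each is a small part of the gene's counts. In the Yars transcript, ENSMUST00000133992.7, the stop codon lies 360 nt upstream. It had 131, 123 and 128 counts in the input, as against 58, 77 and 86 in the p-UPF1 IP, a log2 fold change of 0.69 ± 0.15 (adjusted p = 0.0224) that is under the threshold of 1, and the Yars mRNA ENSMUST00000106054.2 had a log2 fold change of 0.31 ± 0.09 (adjusted p = 0.0554).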

How the data were processed

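RIP-seq reads of 25- to 50-nt fragments from 9 libraries were, per the study's methods, trimmed with fastp (reads of at least 35 nt kept), mapped with STAR 2.7.0f to GRCm38.p6 with GENCODE M22 and quantified with Salmon 0.13.1 (versions from the submitters' processing notes). The authors deposited estimated counts per transcript, as whole numbers, not scaled for library size and with replicates not pooled. Here they were summed per gene symbol and tested with edgeR 4.0.16 (R 4.3.3; TMM, quasi-likelihood) on the 6 libraries of 2 groups, for genes with a summed count of at least 10. SE were derived from the F statistic. Fold changes against a group at 0 were bounded at 3 counts in a library. All 283 transcripts of the members were matched to GENCODE M21 (GRCm38), which gave types, coordinates, G+C content (of the transcript with most counts over the 9 libraries) and sequences. The procedure was tested on simulated data, where the share of false gene calls was above the nominal level and few changes were recovered in comparisons with the rIgG IP. Almost no changes were recovered in the test of single transcripts, so that a transcript not called cannot be taken as unchanged.

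The members and lists were chosen with earlier results of these data known. Values per library are given for called members, at most 12 of each class in order of p, and for members against their class; transcripts were named as the 10 called with the smallest p, and the others named were chosen after their values were seen. Results were recomputed with RLE factors or library totals, DESeq2 1.42.0, filterByExpr, no filter, all 9 libraries, a replicate block, a log2 fold change above 1 and leaving out each library; protein-coding transcripts alone and genes of like G+C content were chosen after seeing the data. Replicate libraries differed by more than sampling noise, so none was counted as a copy. Further cell type markers are not reported here.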

Additional observations from a re-analysis of the deposited data

How the results depend on the processing

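Against input, the counts of members called varied little: over the 6 libraries left out in turn, 13 to 14 were higher and 16 to 17 lower, cytoplasmic genes were 6 to 7 higher and 12 lower, and mitochondrial genes 7 higher and 4 to 5 lower. With a log2 fold change above 1 as well, 9 members were higher and 8 lower, of which cytoplasmic genes were 2 and 3. The cytoplasmic minus the mitochondrial median log2 fold change was −0.76; it was −1.18 with filterByExpr, which leaves out Pars2, −0.11 with protein-coding transcripts alone (the cause was not tested) and −0.92 to −0.75 with a library left out. Of single genes, Ears2 (−7.86, fitted against 0 counts and therefore no bound), Lars (1.69) and Mars (0.22) reversed with protein-coding transcripts alone, which test 34 of the 35 genes.

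Against the rIgG IP, 8 members were higher: 5 with filterByExpr, 5 with protein-coding transcripts alone and 6 to 9 with a library left out. Those lower numbered 2, and 1 with protein-coding transcripts alone, 1 with a log2 fold change above 1, and 0 to 3 with a library left out. The difference of the class medians was −0.99, and −3.40 to −0.31 with a library left out, the former without rIgG IP replicate 1, the deepest. Between the rIgG IP and input it was 0.09, reversed with DESeq2 (−0.12), the replicate block (−0.12) and without input replicate 3 (−0.03) or rIgG IP replicate 3 (−0.05), and −0.05 to 3.93 with a library left out; 0 members were called each time. Transcripts higher over input were 14 to 20 and lower 11 to 18 with a library left out.

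Libraries of the same replicate number did not deviate together (r = −0.00106 to 0.0547 for p-UPF1 IP and input over 10613 genes). Such correlations cannot tell whether these libraries came from the same culture, since noise between libraries can hide a shared source. With the replicate block, 14 members were higher and 16 lower than input, 6 were higher and 0 lower than rIgG, and 7 transcripts were higher and 9 lower. The depth of the rIgG IP (79010 to 474491 counts) limits every comparison with it.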
